A study of Mus musculus with 6 samples.

Results

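Transcripts of 9 genes were followed in the mouse macrophage-like line RAW264.7: Trem2 and its adaptor Tyrobp, and 7 genes of the lipid-associated macrophage state, Apoe, Lpl, Fabp5, Gpnmb, Spp1, Cd9 and Cd63. They were taken by symbol from the 56636 genes of the deposited table, each matched 1 row, and all 9 passed the filter for testing (a mean of at least 1 TPM), as 12092 genes did. The cells were labelled WT and received vehicle (3 libraries) or 25-HC (3 libraries) for 24 h. The labels do not spell out 25-HC, the usual abbreviation of the oxysterol 25-hydroxycholesterol, and give no dose in the sources used. By its title, the series concerns cholesterol homeostasis and a microRNA that cancer cells secrete. RAW264.7 is 1 virus-transformed line, and no label says whether a group's libraries came from separate cultures, so p-values measure the spread between libraries, which may be technical.

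TREM2 is a surface receptor of macrophages and microglia that binds lipids, lipoproteins and apoptotic material. It has no signalling motif of its own and works through TYROBP (DAP12), whose phosphorylated tail recruits the kinase SYK. Macrophages that take up much lipid, in obese fat, in atherosclerotic plaques and around lesions of the brain, switch on a shared set of genes in which TREM2 takes part. The set includes secreted and intracellular lipid carriers (APOE, FABP5), a triglyceride-cleaving enzyme (LPL), the glycoproteins GPNMB and osteopontin (SPP1), and tetraspanins of the cell surface and of lysosomes (CD9, CD63).

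The state of the cells and of the libraries was checked first. Of 9 macrophage markers 8 were tested, and their summed level was 1601 to 2364 TPM in vehicle and 2343 to 2357 TPM in 25-HC. Cd68 stood near 800 TPM in each library, with a mean of 826 TPM in vehicle and 809 TPM in 25-HC. The other markers were less even. Adgre1, Itgam, Ptprc, Lyz2 and Fcgr1 were higher in every 25-HC library than in every vehicle library, as 22.6% of all tested genes were. Csf1r and Cd14 overlapped. Itgam had the widest range in vehicle, at 12.5, 0.53 and 51 TPM, against 69.4, 62.4 and 71.4 TPM with 25-HC. Mertk was listed at 0 in all 6 libraries. The 3 vehicle libraries differed from each other: vehicle 2 had 9492 genes at 1 TPM or more, against 11238 in vehicle 1, 11994 in vehicle 3 and 11971 to 12005 in the 25-HC libraries. Relative to the 25-HC mean, long transcripts were low in vehicle 1 and 2, as the plot against transcript length shows. TPM is a transcript level scaled for transcript length and summing to 1 fixed total per library, so read depth is unknown.

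Promoter sequence is shown for Trem2, the receptor, and for Gpnmb and Spp1, which stood higher in every 25-HC library under each of the scalings below. The 250 bases before the start of transcription come from the RefSeq promoter table (build GRCm38.p6, while the deposited levels rest on GRCm39), for Spp1 the first of 2 windows. Of the 9 genes, 6 had an entry, and Tyrobp, Lpl and Fabp5 were not among them. Capitals mark matches, on either strand, to GAGGAA (the core bound by PU.1, the master factor of macrophages) and to TCACNCCAC (a sterol regulatory element, bound by SREBP).
Trem2 (chr17:48346151-48346400, plus strand): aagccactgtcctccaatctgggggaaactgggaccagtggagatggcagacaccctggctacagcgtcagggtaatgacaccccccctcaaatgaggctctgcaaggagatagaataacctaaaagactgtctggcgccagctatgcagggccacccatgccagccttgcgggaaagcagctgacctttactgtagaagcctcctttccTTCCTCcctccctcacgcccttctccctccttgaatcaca
Gpnmb (chr6:49036268-49036517, plus strand): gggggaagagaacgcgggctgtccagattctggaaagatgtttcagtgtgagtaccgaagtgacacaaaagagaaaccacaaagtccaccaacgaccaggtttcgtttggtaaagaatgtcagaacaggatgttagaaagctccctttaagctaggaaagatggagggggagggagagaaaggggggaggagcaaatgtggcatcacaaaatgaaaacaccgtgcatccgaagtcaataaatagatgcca
Spp1 (chr5:104434861-104435110, plus strand): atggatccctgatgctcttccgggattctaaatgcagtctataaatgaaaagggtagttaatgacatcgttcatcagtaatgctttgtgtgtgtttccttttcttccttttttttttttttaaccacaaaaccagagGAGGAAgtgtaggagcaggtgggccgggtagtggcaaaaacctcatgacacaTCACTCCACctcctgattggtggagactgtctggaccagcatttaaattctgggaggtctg

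The Trem2 window held 1 GAGGAA match, on the minus strand, whose first base lies 40 bases before the start. The Spp1 window held a GAGGAA match from base 113 and a TCACNCCAC match from base 61 before the start. GAGGAA occurred in 23.3% and TCACNCCAC in 1.05% of 32851 promoter windows of the same length. The Gpnmb window held neither. CACGTG, the E-box of the MiT/TFE factors (6.02% of windows), TGAGTCA, the AP-1 site (4.46%), and DR4, the LXR element of AGGTCA repeated after 4 bases (0.0152%), were found in none of the windows of the 6 genes. These are matches of letters only, with no evidence of binding in these data.

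Of the 9 genes, 5 (Trem2, Fabp5, Gpnmb, Spp1 and Cd63) had all 25-HC values above all vehicle values, 4 overlapped and none was lower. Over all 12092 tested genes, 22.6% were separated upward in this way and 8.1% downward. None of the 9 passed limma with Benjamini-Hochberg adjustment over all tested genes, a test that called 1 gene higher (0.00827% of those tested) and 0 lower (996 and 356 at an unadjusted p under 0.05, 8.24% and 2.94%). Of the 9, Trem2 and Fabp5 had an unadjusted p under 0.05, both higher in 25-HC. The median log2 difference of the 9 genes was 0.72, beside 0.52 for all tested genes. The count of 5 depended on the setting. It was 2 after median-ratio rescaling (18.7% of all tested genes separated upward and 17.9% downward), 3 after correction for the longest transcript (17.1% and 18.7%) and 6, with Tyrobp added, after correction for the principal transcript (17.4% and 19%). Against vehicle 3 alone 6 were higher and 2, Lpl and Cd9, lower (28.5% and 45.7%). In bulk RNA, fewer cells with a transcript and less transcript per cell cannot be told apart.

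**Figure D1:**
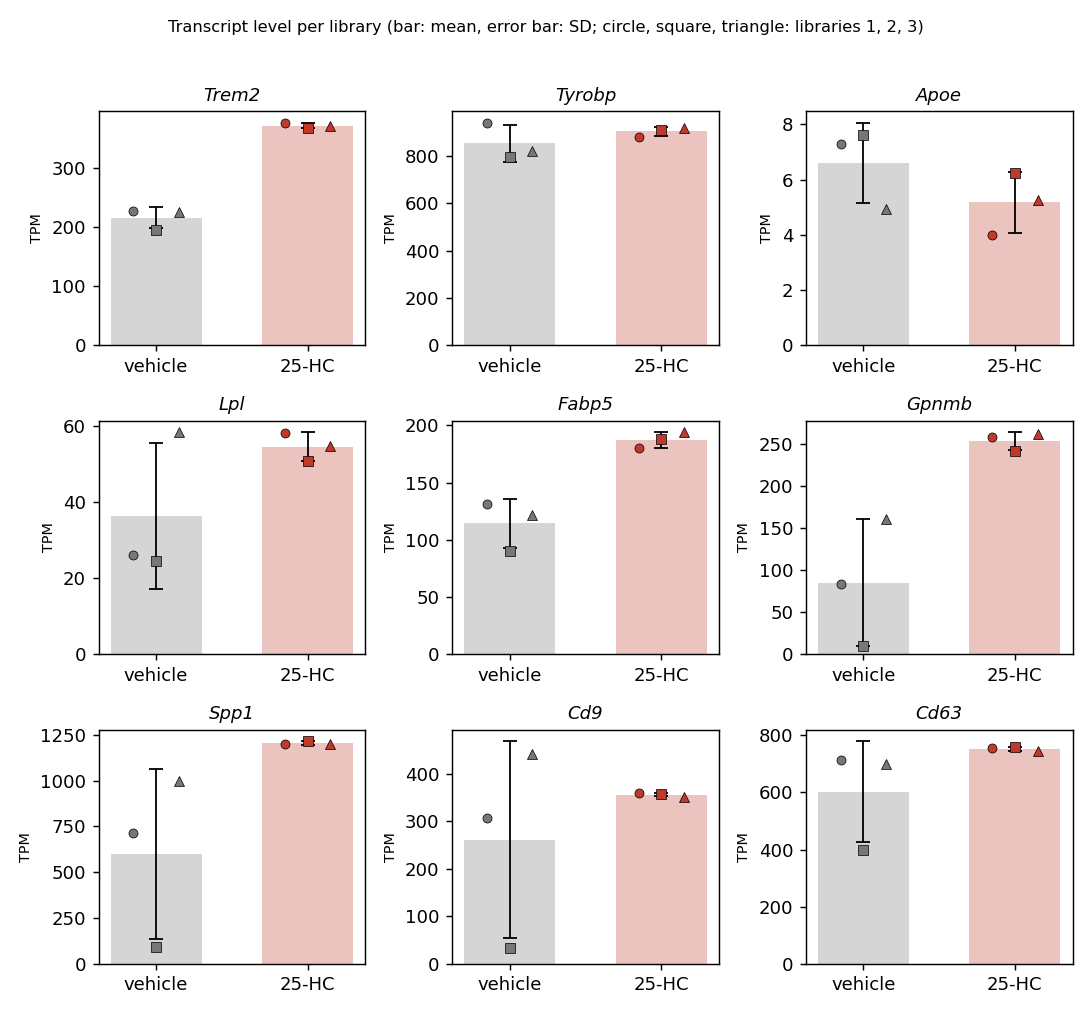
TPM of each of the 9 genes (vertical axes, from 0) in 3 vehicle and 3 25-HC libraries; bars are means, error bars SD, and marker shapes the library number. The 25-HC libraries lie close together for most genes, while Gpnmb, Spp1 and Cd9 spread from near 0 to far higher values among the vehicle libraries.

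Trem2 was the receptor of interest and was abundant. Vehicle 1, 2 and 3 held 228, 195 and 225 TPM, against 377, 368 and 371 TPM with 25-HC. The groups were well apart, and even vehicle 2 was close to the other vehicle libraries for this gene. The means were 216 ± 17.9 TPM and 372 ± 4.26 TPM (SD, n = 3 each), a 1.72-fold difference, or 1.66-fold against vehicle 3 alone. The log2 difference was 0.79 (SE 0.17, 95% interval 0.38 to 1.19, limma adjusted p = 0.389). This separation depended on the scaling. Quantile normalization (log2 difference 0.70) and the correction for principal transcript length (0.63) kept it, and the correction for the longest transcript (0.06) did not. Median-ratio rescaling divides vehicle 2 by 0.409 and the other libraries by 0.973 to 1.32, and after it Trem2 was at 234, 478 and 170 in vehicle against 295 to 298 in 25-HC, which overlap.

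Tyrobp, the adaptor, had the log2 difference of smallest absolute size among the 9. It was at 941, 797 and 820 TPM with vehicle, against 881, 911 and 920 TPM with 25-HC, with vehicle 1 the highest of all 6 libraries. The difference was 0.09 (95% interval -0.27 to 0.45, limma adjusted p = 0.679), and it turned to -0.55 after median-ratio rescaling.

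The ratio of receptor to adaptor transcript within a library does not move when a library is scaled by 1 factor. Trem2 over Tyrobp was 0.242, 0.245 and 0.274 in vehicle and 0.427, 0.404 and 0.403 in 25-HC. The groups did not overlap, and vehicle 2 lay with vehicle 1. The mean log2 ratio was -1.98 ± 0.10 in vehicle and -1.28 ± 0.05 in 25-HC (SD, n = 3 each), a difference of 0.70. The two-sided exact permutation test gave p = 0.1, the smallest that 3 libraries against 3 allow. Both principal transcripts are short, at 1088 bases for Trem2 and 564 for Tyrobp. After correction for the length of the principal transcript the difference was 0.47. After correction for the longest annotated transcript, which for Trem2 is a 4784-base isoform, it was -0.10. Among all 36 pairs of the 9 genes 15 had ratios that did not overlap between groups, and among all pairs of tested genes 34.3% did.

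**Figure D2:**
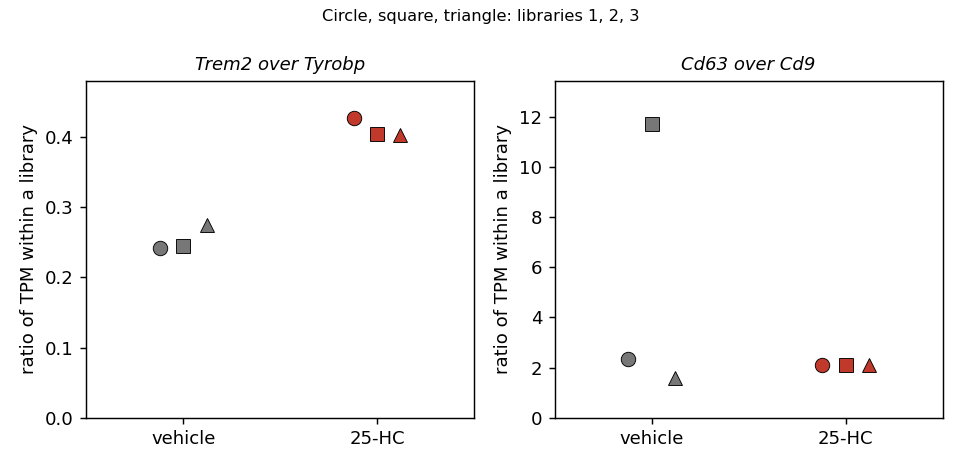
Ratio of TPM within each library (vertical axes, from 0) for Trem2 over Tyrobp and for Cd63 over Cd9; marker shapes give the library number. Trem2 over Tyrobp was at most 0.274 in vehicle and at least 0.403 in 25-HC, while vehicle 2 stood alone at 11.7 for Cd63 over Cd9.

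The next 3 genes handle lipid. Apoe, a lipoprotein component and ligand of TREM2, was the lowest of the 9. It was at 7.28, 7.61 and 4.94 TPM with vehicle, against 4.01, 6.24 and 5.27 TPM with 25-HC, and the groups overlapped. Its log2 difference of -0.30 (95% interval -1.05 to 0.45, limma adjusted p = 0.515) was the only negative one among the 9.

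Lpl, the lipase that frees fatty acids from lipoprotein triglyceride, was at 26.1, 24.7 and 58.6 TPM with vehicle, against 58.4, 50.8 and 54.8 TPM with 25-HC. Vehicle 3 reached the treated libraries and the other vehicle libraries lay far below them. The log2 difference was 0.68 (SE 0.38, limma adjusted p = 0.389), -0.10 against vehicle 3 alone and -0.04 after the correction for principal transcript length. Without vehicle 3 it was 1.07 (limma adjusted p = 0.0502).

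Fabp5, a chaperone that carries fatty acids inside the cell, was at 131, 90.4 and 122 TPM with vehicle, against 180, 188 and 194 TPM with 25-HC. The groups did not overlap, and the fold difference was 1.64, or 1.53 against vehicle 3. The log2 difference was 0.72 (SE 0.22, limma adjusted p = 0.389). The groups overlapped with median-ratio rescaling, where the log2 difference was 0.09, and with the correction for the longest transcript, where it was 0.12. The longest transcript has 3238 bases and the principal one 987. The groups stayed apart with quantile normalization (0.56) and with the correction for the principal transcript (0.61). The Fabp5 value is uncertain because Gm6166, a gene whose transcript is 98.3% identical to Fabp5 over 409 bases, can share its reads. Gm6166 was at 114, 41.6 and 119 TPM with vehicle, against 172, 160 and 165 TPM with 25-HC. The sum of both was 206 ± 64.0 TPM with vehicle against 353 ± 5.55 TPM (SD, n = 3 each), a 1.72-fold difference. For Cd9 and Cd63, transcripts at least 90% identical over 200 bases or more had at most 0.9 TPM, and no such transcript was found for the other 6 genes.

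Gpnmb, a glycoprotein of lysosomes and the cell surface that is induced by lysosomal stress, had the largest log2 difference of the 9. It was at 83.5, 10.4 and 161 TPM with vehicle, against 258, 241 and 261 TPM with 25-HC. Every treated library was above every vehicle library, but vehicle 3 was 15.4-fold above vehicle 2. The means were 84.9 ± 75.2 TPM and 253 ± 11.0 TPM (SD, n = 3 each). The log2 difference was 2.24 (SE 0.94, 95% interval -0.03 to 4.50, limma adjusted p = 0.389). It was 1.12 without vehicle 2 and 0.65 against vehicle 3 alone. The separation held after median-ratio rescaling (2.60-fold) and after the correction for principal transcript length (log2 difference 1.54).

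Spp1, which encodes the secreted integrin and CD44 ligand osteopontin, was the most abundant of the 9 in 25-HC. It was at 716, 90.5 and 998 TPM with vehicle, against 1201, 1217 and 1200 TPM with 25-HC. The treated libraries agreed within 1.01-fold, whereas the vehicle libraries ranged over 11.0-fold with vehicle 2 the lowest. The log2 difference was 1.58 (SE 0.87, limma adjusted p = 0.389), 0.51 without vehicle 2 and 0.27 against vehicle 3 alone. After median-ratio rescaling Spp1 was still higher in each 25-HC library (1.68-fold). Gpnmb and Spp1 were the only genes of the 9 that stayed separated under that rescaling.

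Cd9, a tetraspanin of the plasma membrane that organises adhesion and fusion, was at 307, 34.0 and 442 TPM with vehicle, against 359, 357 and 352 TPM with 25-HC. The treated libraries lay between vehicle 1 and vehicle 3, and vehicle 2 was 13-fold below vehicle 3. The log2 difference of 1.09 (SE 0.93, limma adjusted p = 0.452) turned to -0.05 without vehicle 2.

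Cd63, a tetraspanin of late endosomes, lysosomes and exosomes, was at 712, 398 and 698 TPM with vehicle, against 756, 758 and 745 TPM with 25-HC. The treated libraries were higher in each case, though only 1.08-fold above vehicle 3. The log2 difference was 0.37 (SE 0.26, limma adjusted p = 0.407) and turned to -0.27 after median-ratio rescaling. The ratio of Cd63 to Cd9 was 2.32, 11.7 and 1.58 in vehicle and 2.11 to 2.12 in 25-HC. It overlapped between groups (two-sided exact permutation p = 0.7).

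**Figure D3:**
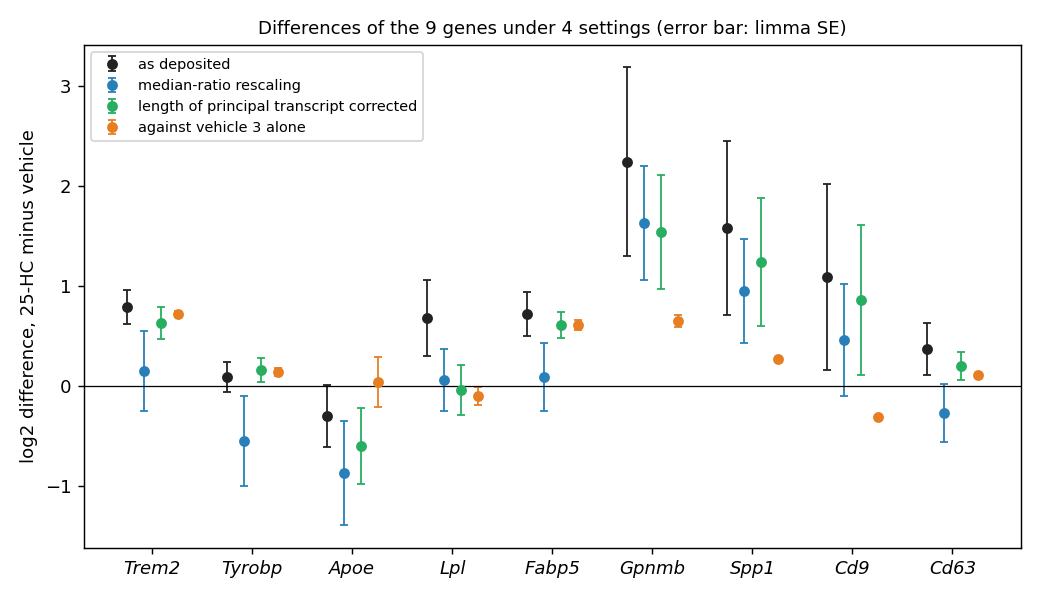
Log2 difference, 25-HC minus vehicle (vertical axis), of the 9 genes (horizontal axis) under 4 settings given by colour; error bars are limma standard errors. Trem2, Fabp5, Gpnmb and Spp1 are above 0 under all 4 settings shown, Tyrobp, Apoe, Cd63 and Lpl cross 0 with the scaling or the library used, and Cd9 is at -0.31 against vehicle 3 alone.

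By level, which TPM allows between genes, the order in 25-HC was Spp1 (1206 TPM), Tyrobp (904), Cd63 (753), Trem2 (372), Cd9 (356), Gpnmb (253), Fabp5 (187), Lpl (54.6) and Apoe (5.17). Each gene was above the next in every pairing of treated libraries, and Trem2 and Cd9 were the nearest neighbours relative to their level. In vehicle, Tyrobp came first with a mean of 853 TPM. There the ranges of Cd63, Spp1, Cd9 and Trem2 overlapped from each gene to the next, as did those of Fabp5, Gpnmb and Lpl. Together the 9 genes took 0.315%, 0.165% and 0.353% of all TPM in vehicle 1, 2 and 3, against 0.407% to 0.41% in 25-HC.

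Set against the 25-HC mean on the log2(TPM + 1) scale, the vehicle libraries placed the 9 genes differently. In vehicle 3, Trem2 was at -0.72, Gpnmb at -0.65, Fabp5 at -0.61 and Spp1 at -0.27, while Cd9 was at 0.31. In vehicle 2, Gpnmb was at -4.47, Spp1 at -3.72 and Cd9 at -3.35. Those 3 lay far below the others: Cd63 was at -0.92, Trem2 at -0.93, Fabp5 at -1.04 and Lpl at -1.11, with Tyrobp at -0.18 and Apoe at 0.50. The median of all tested genes of similar length in that library was -1.67 for the length sixth of Gpnmb and Lpl. It was -0.93 for the length sixth of Spp1, Cd9 and Apoe, and -0.03 for that of Trem2, Tyrobp, Fabp5 and Cd63. Cd9 and Cd63, close in length at 1228 and 1109 bases, were at -3.35 and -0.92. The part of transcript length in these values was not tested beyond the length corrections. Among 2353 genes averaging 50 TPM or more and above 0 in each vehicle library, 6.16% had a ratio of vehicle 3 to vehicle 2 of at least 11.0, the smallest of the ratios of Gpnmb, Spp1 and Cd9.

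**Figure D4:**
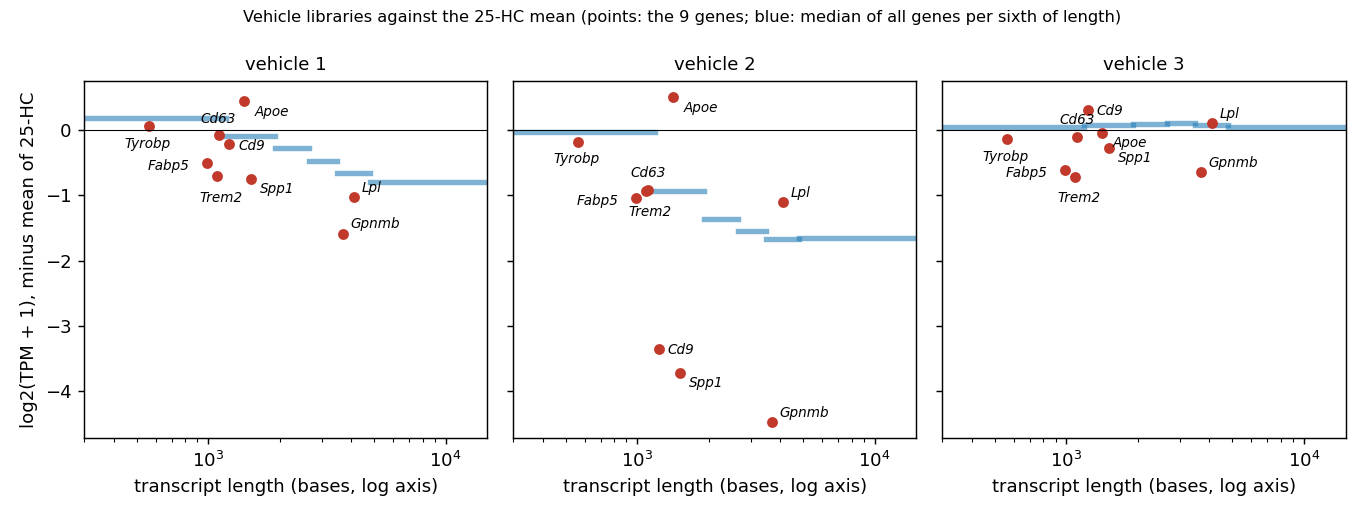
Log2(TPM + 1) in each vehicle library minus the mean of the 25-HC libraries (vertical axis) against principal transcript length in bases (log axis); points are the 9 genes and blue lines the median of all tested genes in each sixth of length. In vehicle 2 Gpnmb, Spp1 and Cd9 lie at -3.35 or below, far under genes of their length, while the medians of vehicle 3 stay between 0.04 and 0.10.

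Base composition also moved with the vehicle libraries. The median difference of all genes from the 25-HC mean in vehicle 2 was -1.51 in the sixth of genes lowest in GC content and -0.78 in the highest, and in vehicle 1 it was -0.55 and -0.09. Apoe (59.5% GC), Trem2 (57.5%) and Tyrobp (55.5%) are the richest in GC of the 9, and Spp1 (43.3%), Lpl (43.5%), Fabp5 (45.6%) and Cd9 (45.9%) the poorest. The part of base composition in these differences was not tested.

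The genes whose pattern over the 6 libraries was most like that of Trem2 were Lgals3, Camk1, Bcl2a1d, Bcl2a1b and Fabp5, with distances of 0.133, 0.138, 0.173, 0.218 and 0.257. The distance is Euclidean, on log2(TPM + 1) minus the mean of the gene, over the 2366 genes that averaged 50 TPM or more. Lgals3, which encodes the lectin galectin-3, was at 313, 256 and 287 TPM with vehicle, against 523, 528 and 501 TPM with 25-HC. Its 1.81-fold difference was close to that of Trem2 at 1.72-fold. Camk1, a calcium-dependent kinase, was at 58.0 ± 3.04 and 104 ± 2.71 TPM (SD, n = 3 each). Bcl2a1b and Bcl2a1d are near-identical copies that can share reads. Of the other genes of interest Cd63 was at 0.714, Tyrobp at 0.869 and Gpnmb at 3.20.

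The partners of TREM2 and TYROBP in signalling and shedding were all measurable, with 15 of 15 tested, 6 separated upward (22.6% of all tested genes did), 0 downward (8.1%) and 0 called by limma. Their median log2 difference was 0.91 as deposited, 0.42 with median-ratio rescaling, 0.15 corrected for principal transcript length and 0.11 against vehicle 3 alone. The medians of all tested genes were 0.52, 0.01, 0.00 and -0.07 in that order. Adam17, a protease that sheds TREM2 and TNF, was at 7.90, 0.56 and 24.7 TPM with vehicle, against 34.4, 31.0 and 35.6 TPM with 25-HC. Lat2, a transmembrane signalling adaptor, was at 171, 53.7 and 202 TPM with vehicle, against 257 ± 7.55 TPM with 25-HC (SD, n = 3). Ptpn6, the phosphatase SHP-1 and the most abundant of the list, overlapped between groups, with 376 TPM in vehicle 3 and 281 to 286 TPM in 25-HC. Syk itself was at 12.5, 5.38 and 26.3 TPM with vehicle, against 24.6, 21.8 and 24.4 TPM with 25-HC.

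Most other receptors of the TREM family or coupled to TYROBP were near 0, and 3 of 14 were tested. Cd300lb, the most abundant of them, was at 30.2, 6.54 and 55.6 TPM with vehicle, against 47.1 to 47.7 TPM with 25-HC, with overlap. Cd300c2 was at 10.3, 3.47 and 9.22 TPM with vehicle, against 13.5, 10.6 and 13.5 TPM with 25-HC. It was the single one of the 3 without overlap, beside 22.6% of all tested genes separated upward and 8.1% downward. After median-ratio rescaling Cd300c2 overlapped too (log2 difference 0.19). Trem1 reached at most 0.06 TPM and Trem3 at most 1.61 TPM in any library.

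Around Apoe and Lpl, 5 of 11 and 5 of 10 listed genes were tested, with 2 separated upward in each list and 0 downward (22.6% and 8.1% of all tested genes). Lrp1, an APOE receptor, overlapped, with 110 TPM in vehicle 3 and 88.0 to 93.7 TPM in 25-HC. Abcg1, a cholesterol exporter, was higher in each treated library but only 1.15-fold above vehicle 3. Sel1l, which LPL needs to leave the endoplasmic reticulum, was at 9.07, 2.69 and 25.9 TPM with vehicle, against 40.1, 33.3 and 38.5 TPM with 25-HC. The median log2 differences of the lists were 0.76 and 0.50, or 0.20 and 0.01 after median-ratio rescaling. They turned to -0.02 and -0.16 after the correction for principal transcript length.

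Of 9 osteopontin receptors 6 were tested and 3 separated upward and 0 downward, beside 22.6% and 8.1% of all tested genes. With median-ratio rescaling the counts were 3 and 1, beside 18.7% and 17.9%. The median log2 difference of the list was 1.05 as deposited, 0.44 rescaled, 0.32 corrected for length and 0.01 against vehicle 3 alone (all genes 0.52, 0.01, 0.00 and -0.07). Itgb5, an integrin beta chain, was at 56.8, 11.8 and 88.0 TPM with vehicle, against 88.6, 98.1 and 94.7 TPM with 25-HC. Itgb1 was at 15.8, 4.85 and 34.1 TPM with vehicle, against 36.0, 34.4 and 34.2 TPM with 25-HC. Both stood no more than 1.07-fold above vehicle 3, and Cd44 overlapped, with 81.2 TPM in vehicle 3 and 63.8 to 71.8 TPM in 25-HC.

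The MiT/TFE factors, which drive lysosomal genes and Gpnmb, had 3 of 4 tested and 2 separated upward, or 1 with median-ratio rescaling (22.6% and 18.7% of all tested genes). Their median log2 difference was 0.90 as deposited, 0.32 rescaled, 0.24 corrected for length and 0.10 against vehicle 3 alone (all genes 0.52, 0.01, 0.00 and -0.07). Tfeb was at 10.9, 6.95 and 11.0 TPM with vehicle, against 11.6, 12.1 and 11.9 TPM with 25-HC. Once rescaled, its groups overlapped and its log2 difference was -0.28. Tfe3, the most abundant, overlapped, with 32.8 TPM in vehicle 3 and 28.9 to 29.8 TPM in 25-HC. Mitf, chosen after its values were seen, was at 1.07, 0.3 and 2.87 TPM with vehicle, against 4.75, 4.46 and 4.17 TPM with 25-HC. Its groups stayed apart once rescaled, with a log2 difference of 1.01, and it was 1.55-fold above vehicle 3. Of 15 other tetraspanins 12 were tested, 4 separated upward and 0 downward (22.6% and 8.1% of all tested genes), and 5 and 1 when corrected for length (17.4% and 19%). Their median log2 difference was 0.92 as deposited, 0.36 rescaled, 0.48 corrected for length and 0.02 against vehicle 3 alone, beside the same medians of all genes. Cd53 was at 186, 37.3 and 291 TPM with vehicle, against 291, 294 and 296 TPM with 25-HC, and Cd82 was 1.09-fold above vehicle 3. Among the fatty acid binding proteins and PPARs, Fabp4 was the most abundant at 24.2, 16.4 and 19.0 TPM in vehicle and 18.2 to 19.8 TPM in 25-HC. It overlapped, as did Ppard, the only other one of that list tested, and Pparg was at most 0.02 TPM.

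A longer list of 34 other genes of the lipid-associated macrophage and disease-associated microglia states had 29 tested. Of these 18 were separated in the upward and 2 in the downward direction (22.6% and 8.1% of all tested genes). The list was chosen with earlier results of these data known, so the counts describe it and do not test it. The counts were 9 and 4 with median-ratio rescaling and 13 and 2 with the correction for principal transcript length, beside the shares of all genes given above. Their median log2 difference was 0.86 as deposited, 0.22 when rescaled, 0.28 when corrected for length and 0.29 against vehicle 3 alone, beside 0.52, 0.01, 0.00 and -0.07 for all genes. None was called by limma, and 11 had an unadjusted p under 0.05, of which Cd52 was lower and the rest higher. Of all tested genes, 8.24% were higher and 2.94% lower at that unadjusted p.

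Ctsl, the lysosomal protease cathepsin L, was at 205, 30.9 and 350 TPM with vehicle, against 538, 590 and 585 TPM with 25-HC. Plin2, which coats lipid droplets, was at 102, 31.9 and 128 TPM with vehicle, against 269, 259 and 267 TPM with 25-HC, 2.06-fold above vehicle 3. Both kept their separation after median-ratio rescaling. Ccl3, the most abundant of the list, overlapped with 2969 TPM in vehicle 3 and 2892 to 2979 TPM in 25-HC. Cd52, a small surface glycoprotein chosen after its values were seen, was lower in each treated library, at 1046, 1010 and 827 TPM with vehicle, against 590, 638 and 619 TPM with 25-HC. Cd36, the fatty acid and lipoprotein scavenger receptor, likewise chosen, overlapped, with 56.8 TPM in vehicle 3 and 38.3 to 39.6 TPM in 25-HC.

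**Figure D5:**
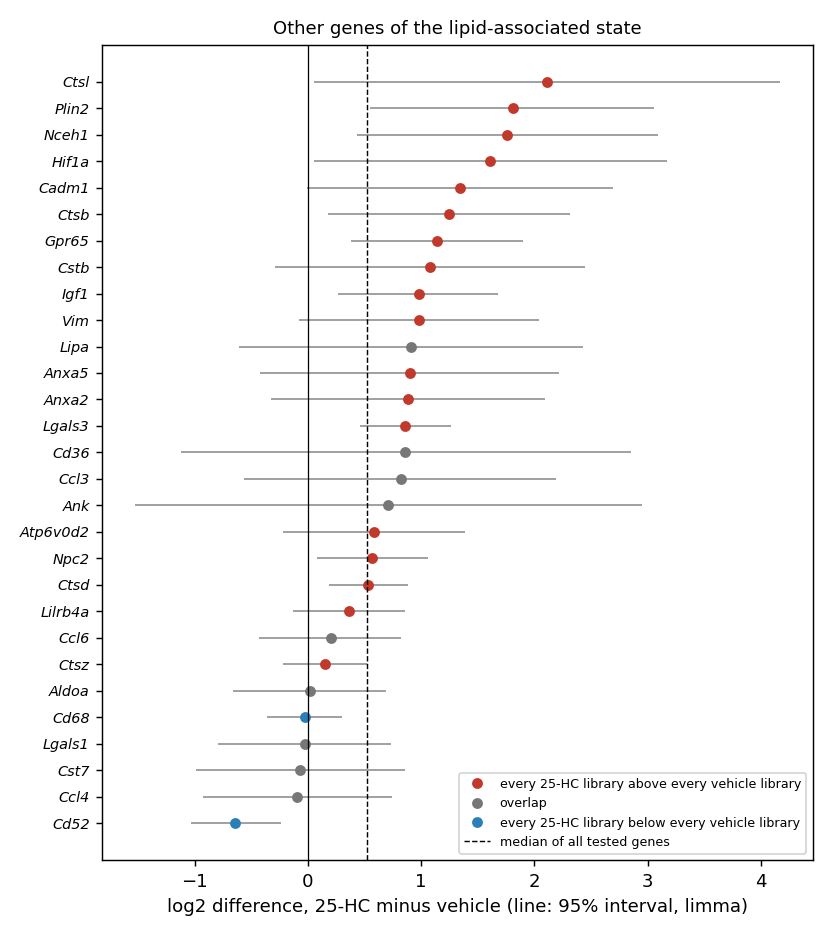
Log2 difference, 25-HC minus vehicle (horizontal axis), of the 29 tested genes of the longer list; lines are 95% limma intervals, colours give separation of the groups and the dashed line is the median of all tested genes. Most points are above 0, with Ctsl and Plin2 the highest and Cd52 the lowest.

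Genes of resident macrophages and microglia that are low in those states had 5 of 16 tested, with 1 separated upward and 2 downward. The numbers were the same after median-ratio rescaling. Of all tested genes, 22.6% were separated upward and 8.1% downward as deposited, and 18.7% and 17.9% after rescaling. Cx3cr1, the fractalkine receptor, was at 60.5, 48.0 and 79.1 TPM with vehicle, against 41.8, 34.4 and 28.2 TPM with 25-HC. Csf1r, the receptor for macrophage colony-stimulating factor, overlapped, with 262 TPM in vehicle 3 and 153 to 183 TPM in 25-HC. Folr2, a folate receptor chosen after its values were seen, was at 61.9, 49.7 and 55.1 TPM with vehicle, against 31.9, 36.9 and 30.6 TPM with 25-HC.

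Measured against vehicle 3 alone, with the lone library assumed to vary like the 25-HC libraries, limma called Trem2 (adjusted p = 0.00941), Fabp5 (0.0285), Gpnmb (0.0297) and Spp1 (0.0259) higher and Cd9 (0.0247) lower. The same fit called 4.52% of all tested genes higher and 6.33% lower. That comparison was chosen after seeing the data, since vehicle 3 lacks the trend with length, and it has no replicate on the vehicle side.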

How the data were processed

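RNA of 6 libraries was sequenced, 3 per group. Gene levels were deposited by the authors as 1 TPM table, each column totalling 1000000 TPM (1000001 in 25-HC 2), with 11 empty columns that were ignored. The submitters' processing notes name the build GRCm39 and the tools RSEM, HISAT2 and StringTie, without roles; their versions, the annotation and the strand setting are not given there. TPM keeps no counts, so counting intervals could not be given.

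Groups came from the sample titles. The 12092 genes averaging 1 TPM or more were tested with limma 3.58.1 under R 4.3.3 on log2(TPM + 1) (all 6 libraries, no block, mean-variance trend, two-sided, Benjamini-Hochberg over all tested genes, threshold 0.05), and the fit was tested on simulated data. Fold values are ratios of mean TPM. Separation means that every 25-HC library lies above, or below, every vehicle library. Alternatives were pseudocounts of 0.1 and 5, filters of above 0 in any library and of a 5 TPM mean, quantile normalization, median-ratio rescaling, a replicate block, a loess correction (span 0.75) for the longest transcript, and dropping libraries in turn. A correction for the principal transcript and vehicle 3 alone were added after seeing the data.

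Lengths and GC content came from GENCODE M21 (GRCm38), matched by identifier for 92.1% of tested genes, and similar transcripts were found with BLAST 2.17.0. The members and lists were chosen with earlier results of these data known. Named list genes are the called ones or else the 2 separated genes of at least 5 TPM with the largest difference, and the most abundant gene. Syk, Trem1, Trem3, Cd44, Mitf, Ppard, Pparg, Cd36, Cd52, Folr2 and the genes of the closing observations were named after their values were seen. Not every gene the rule picks is reported here. Python 3.11.15, pandas 2.3.3, scipy 1.17.1 and matplotlib 3.10.9 were used.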

Additional observations from a re-analysis of the deposited data

How the results depend on the processing

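Trem2, Fabp5, Gpnmb and Spp1 had a positive log2 difference in all 16 other settings (lowest 0.06, 0.09, 0.65 and 0.27), none of them past the threshold except against vehicle 3 alone. The others changed sign: Tyrobp to -0.55 and Cd63 to -0.27 after median-ratio rescaling; Cd63 to -0.19 and Lpl to -0.01 with the longest transcript, which left out genes without a length; Lpl to -0.04 with the principal transcript; Cd9 to -0.05 without vehicle 2 (1.78 without vehicle 3); and Apoe to 0.04, Lpl to -0.10 and Cd9 to -0.31 against vehicle 3 alone. The cause of these changes was not tested. Of the 9 genes, 2 were higher without overlap after median-ratio rescaling and 3 with the longest transcript (5 as deposited), and their median difference was 0.09 and 0.12, or 0.14 against vehicle 3 alone. The Trem2 to Tyrobp difference was 0.57 after quantile normalization, 0.47 and -0.10 with the principal and longest transcript, and 0.58 against vehicle 3 alone. The Cd63 to Cd9 difference (-0.72) was 0.42 against vehicle 3 alone. Against that library 2 of the 9 genes were lower, beside 45.7% of all tested genes, and 31 of 36 pairs did not overlap. With 1 vehicle library, values separate more easily than in the full comparison, and the share of all gene pairs there is not given. Over all genes limma called 0 higher with a pseudocount of 5, no filter, a mean of at least 5 TPM or the replicate block, 1 lower after median-ratio rescaling, 4 higher and 1 lower after quantile normalization, 16 and 3 with the longest transcript, 18 and 5 with the principal one, and 547 and 765 against vehicle 3 alone. Leaving out 1 library gave 0 to 671 higher and 0 to 51 lower, the most without vehicle 3, with 9 and 4 without vehicle 2. It gave 5 to 7 of the 9 genes higher, 0 to 1 lower, a median difference of 0.47 to 0.83, and 15 to 29 pairs without overlap. Smaller groups separate more easily, and the shares of all genes and pairs with 1 library left out are not given here. The Trem2 to Tyrobp difference was then 0.66 to 0.75, and the Cd63 to Cd9 difference -1.29 to 0.14, positive without vehicle 2. In the labels, same-numbered libraries share only a number. The correlation of their deviations from the group means across genes was -0.0128, 0.0555 and 0.0296, which cannot show whether they were prepared together. With the replicate block the difference of Trem2 stayed at 0.79 (limma adjusted p = 0.415). Depth is unknown, which leaves values near 0 TPM without an error of their own.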

Other observations

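Defining markers of other cell types were near 0. The summed level of 8 neutrophil markers was 1.92 to 3.96 TPM in vehicle and 1.71 to 4.63 TPM in 25-HC, and that of 9 lymphocyte markers 3.36 to 4.79 and 2.71 to 3.66 TPM. Fibroblast, epithelial and dendritic cell markers summed to at most 1.17 TPM in any library. Osteoclast markers were present, with a summed level of 42.8 to 100 TPM in vehicle and 75.1 to 78.5 TPM in 25-HC; Calcr, a marker of mature osteoclasts, was listed at 0.

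Some genes often used with Trem2 to mark the lipid-associated state were low in all 6 libraries. Itgax was at most 0.63 TPM, Axl at most 0.53 TPM, Clec7a at most 1.40 TPM and Mmp12 at most 0.17 TPM.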
